A study of Homo sapiens with 2 samples.

Results

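FOXJ1 and the genes of the motile cilium were followed in a line of epithelial cells from the human cornea (ATCC CRL-11515). The set holds every gene whose symbol belongs to the DNAH, DNAI, DNAL, DNAAF, RSPH, CFAP, TEKT, IFT or SPAG families, with FOXJ1, RFX2, RFX3, MCIDAS, GMNC, CCNO, TP73 and HYDIN. That gives 95 of the 26506 genes in the deposited tables. The families were chosen by symbol, and the set was drawn up around FOXJ1 because its ratio between the media was already known to be large. The value for FOXJ1 is therefore a description and no support for anything else.

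Cells grown in the special medium were set against cells grown in keratinocyte serum-free medium (KSFM). The special medium was DMEM/F12 to which 1 mM calcium chloride, 10 ng/mL of the growth factor EGF, 10% fetal bovine serum and an antibiotic and antimycotic mix were added. Both cultures were kept for 72 hours, and poly(A) RNA was sequenced from a pool of 3 cultures for each medium. There is thus 1 library per medium, with 16900472 counts in the special medium and 21604652 in KSFM, no replicate spread, and no test between the media.

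A motile cilium is built on an axoneme of doublet microtubules around a central pair. Outer and inner dynein arms on the doublets drive bending, radial spokes and the central apparatus set its pattern, and tektins and other inner proteins stiffen the doublets. Dynein arms are assembled in the cytoplasm by dedicated factors, and intraflagellar transport (IFT) carries parts along all cilia, the immotile primary cilium included. FOXJ1, a forkhead factor, and the RFX factors switch on motile cilium genes, and GMNC, MCIDAS and CCNO act earlier in cells that grow many cilia, such as those of the airway.

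A gene was called when it reached 1 CPM (counts scaled to library size) in either medium, differed by at least 2-fold, and had an exact 95% interval that did not hold equality. Intervals in parentheses cover counting error only. Of the 95 genes, 55 reached 1 CPM in either medium, 10 had 0 counts in both, and the other 30 had at most 15 counts in the special medium and 18 in KSFM. Of the 55, 13 were called higher in the special medium, 1 was called lower and 41 were neither. Over all 13632 genes at that level, 9.86% were called higher and 6.77% lower. With 1 added to TPM in place of scaled counts these background shares were 9.29% and 2.56%, and 6 of the 55 members (10.9%) were called higher and 0 lower. Among the 55 the shares were 23.6% and 1.82%, and without FOXJ1 12 of 54, or 22.2%, were called higher. Of the 13, 5 were below 1 CPM in KSFM and so passed the filter only through the medium where they are high: FOXJ1, DNAH5, RSPH1, CFAP54 and CFAP58. Such genes had to differ, so the shares are descriptions. The median log2 ratio of the 55 was 0.35, and that of the 75 members with a ratio at any level was 0.22, against −0.00042 over the 13632 genes. In pooled RNA from whole cultures, a change in the number of cells that express a gene and a change in RNA per cell cannot be told apart.

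**Figure D1:**
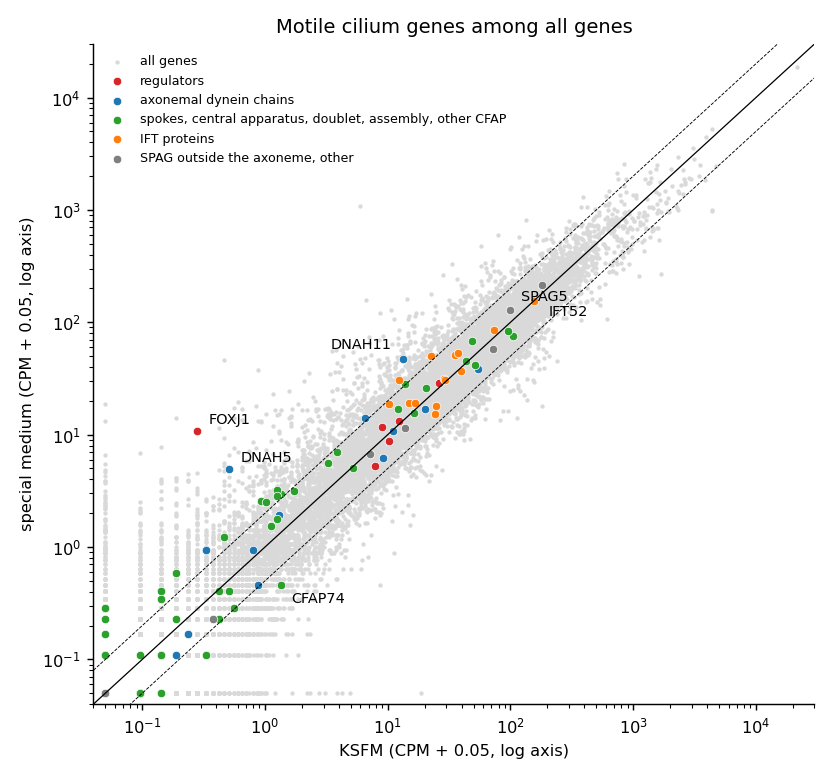
CPM in the special medium (vertical axis) against CPM in KSFM (horizontal axis) for all genes in grey and the 95 members in colour, on log axes with 0.05 added; dashed lines mark 2-fold. FOXJ1, at 10.6 CPM in the special medium and 0.232 CPM in KSFM, and DNAH5 stand furthest above the line, CFAP74 lies below it, and most IFT genes lie between the 2-fold lines.

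The 13 called higher were FOXJ1, the dynein heavy chain genes DNAH5, DNAH11 and DNAH2, the radial spoke gene RSPH1, the central apparatus genes CFAP54 and SPAG16, the doublet gene CFAP45, CFAP43, CFAP57 and CFAP58, and the transport genes IFT122 and IFT81. CFAP74, a central apparatus gene, was called lower. Of the 55, FOXJ1 and DNAH5 (3.64%) also passed a 4-fold rule, which 2.99% of all genes passed upward. With the interval required to lie wholly beyond 2-fold, 4 members (7.27%) remained, FOXJ1, DNAH5, DNAH11 and IFT122, against 6.14% of all genes. Under both stricter rules the members' share was near that of all genes. SPAG16 lay just inside the 2-fold threshold at 2.04-fold, and TEKT2, at 1.84-fold, was the nearest outside it. CFAP54, at 1.18 CPM in the special medium, lay just inside the level filter, and DNAH7, at 0.887 CPM, just outside.

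**Figure D2:**
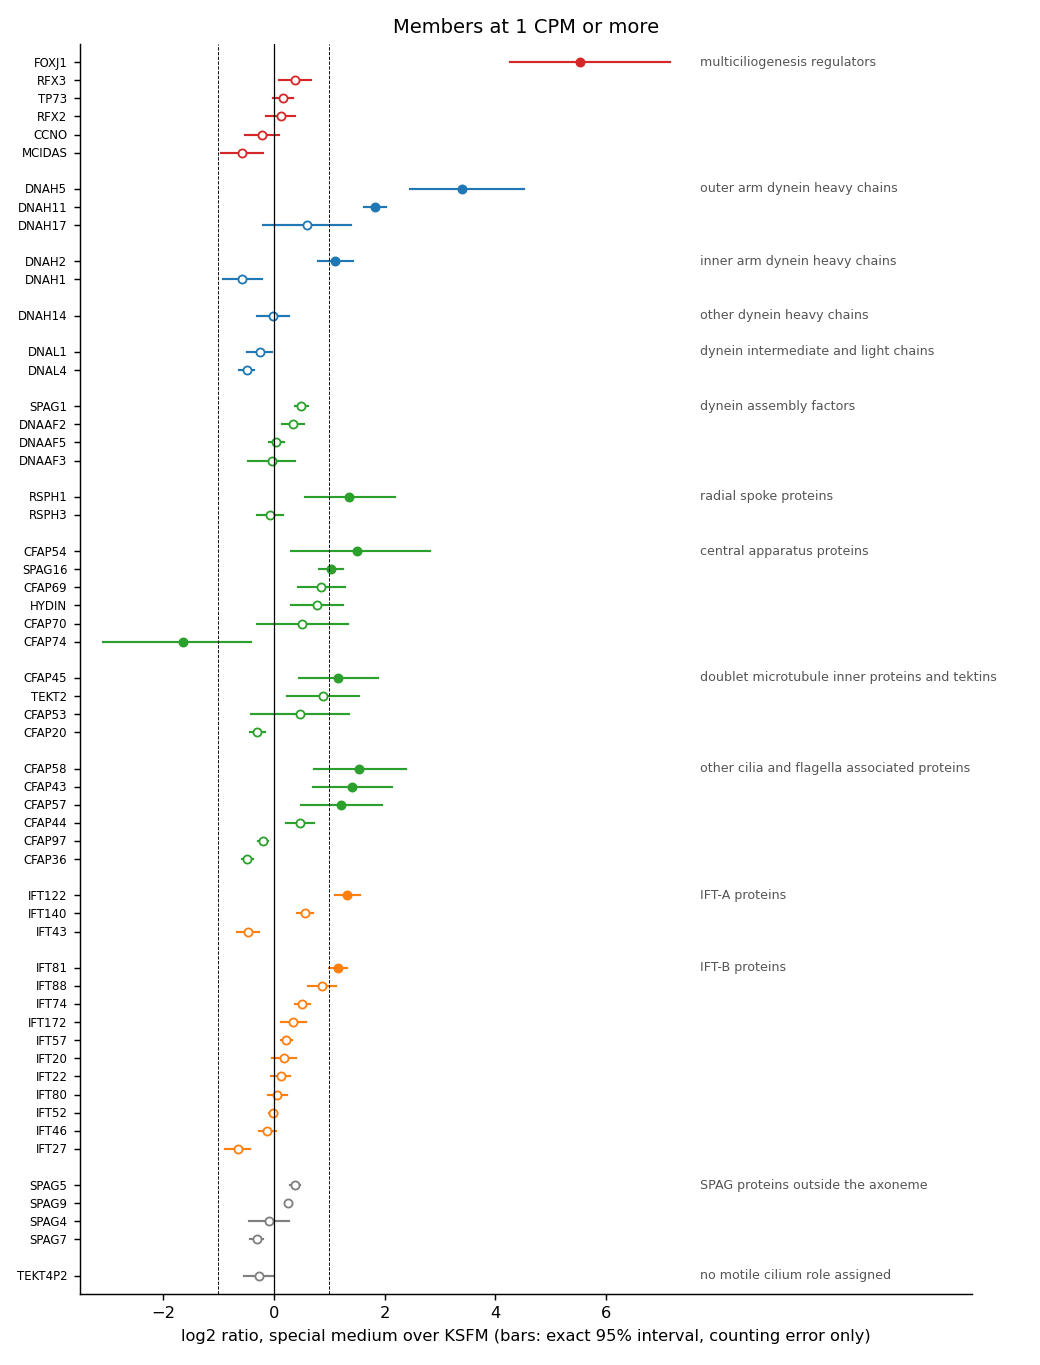
log2 ratio of the special medium over KSFM for the 55 members at 1 CPM or more, grouped by role, with exact 95% intervals for counting error; filled points passed the call rule and dashed lines mark 2-fold. FOXJ1 is at 5.52 and DNAH5 at 3.40, CFAP74 is the filled point to the left, and most IFT genes lie between −0.65 and 0.87.

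FOXJ1 (ENSG00000129654) spans chromosome 17 from 76136333 to 76141299 on the minus strand (GRCh38, gene bounds of GENCODE release 29, used here for all genes). It had 180 counts (10.6 CPM, 8.65 TPM) in the special medium, against 5 counts (0.232 CPM, 0.17 TPM) in KSFM. That is 45.9-fold higher (19.3 to 143), and 11th highest among the 13632 genes. TPM is also scaled by transcript length, so levels of different genes are compared in TPM here. The antisense gene RNF157-AS1 overlaps the first bases of FOXJ1 on the other strand and held 21 counts in the special medium and 16 in KSFM. The strand setting of the authors' counting is not given in the sources used here, so reads of the overlap cannot be told apart. The same holds for RSPH1, DNAH11, CFAP57 and IFT122, which overlap SLC37A1, CDCA7L, EBNA1BP2 and MBD4.

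None of the other regulators was called. MCIDAS, the multicilin gene that starts the multiciliated program, had 89 counts (5.44 TPM) in the special medium and 169 (7.17 TPM) in KSFM, a log2 ratio of −0.57 whose interval lay below equality but within 2-fold. CCNO, its neighbour on chromosome 5 and a cyclin-like gene needed to multiply centrioles, had 149 counts (12.88 TPM) in the special medium and 220 (12.75 TPM) in KSFM. GMNC, which acts upstream of both, had 1 count in the special medium and 0 in KSFM. TP73, a p53 family gene needed for multiciliated cells in mice, had 491 counts in the special medium and 559 in KSFM, a log2 ratio of 0.16. RFX2 had 225 counts in the special medium and 264 in KSFM, a log2 ratio of 0.12. RFX3, the other RFX factor of ciliary genes, had 11.7 CPM in the special medium and 8.99 CPM in KSFM, a log2 ratio of 0.38 with an interval just above equality. In the special medium FOXJ1, at 8.65 TPM, lay within the 4.52 to 12.88 TPM of TP73, CCNO, MCIDAS, RFX2 and RFX3. In KSFM, at 0.17 TPM, it lay below their 4.08 to 12.75 TPM.

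Dynein heavy chains are the motors of the arms. DNAH5, the gamma-type heavy chain of the outer arm, had 83 counts (4.91 CPM, 0.65 TPM) in the special medium and 10 counts (0.463 CPM, 0.06 TPM) in KSFM, 10.6-fold higher (5.48 to 22.9). DNAH11, a beta-type outer arm chain, had 789 counts (6.91 TPM) in the special medium and 284 (1.75 TPM) in KSFM, 3.54-fold higher (3.09 to 4.07). DNAH2, an inner arm chain, had 239 counts (1.94 TPM) in the special medium and 141 (0.81 TPM) in KSFM, 2.16-fold higher (1.75 to 2.68). These 3 genes span chromosome 5 from 13690331 to 13944543, chromosome 7 from 21543215 to 21901839 and chromosome 17 from 7717354 to 7833744.

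No other heavy chain gene was called. DNAH9, the other beta-type outer arm chain of airway cilia, had 0 counts in the special medium and 1 in KSFM, and DNAH8, the sperm counterpart of DNAH5, likewise had 0 in the special medium and 1 in KSFM. DNAH17, an outer arm chain of sperm, had 32 counts in the special medium and 27 in KSFM, 1.51-fold (0.877 to 2.62). Of the inner arm chains, DNAH1 had 6.15 CPM in the special medium and 9.13 CPM in KSFM, a log2 ratio of −0.57, and DNAH3, DNAH6, DNAH7, DNAH10 and DNAH12 stayed below 1 CPM in both media. In TPM, 9 of the 13 heavy chain genes were below 1 in both libraries. DNAH14 had the highest TPM of them, 20.60 in the special medium and 17.74 in KSFM, on 183 counts in the special medium and 235 in KSFM. That rank rests on an implied transcript length of 1139 bases, 8.28% of its longest transcript. DNAH11 had more counts than DNAH14 in both media.

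DNAI1 and DNAI2 encode the intermediate chains without which outer arms do not form. DNAI2 had 0 counts in both libraries, and DNAI1 had 15 counts (0.887 CPM) in the special medium and 6 (0.278 CPM) in KSFM, below the filter. A count of 0 allows up to 3 counts, which is 0.177 CPM in the special medium and 0.139 CPM in KSFM. The light chain genes DNAL4 and DNAL1 were detected well, at 58.00 and 4.08 TPM in the special medium and 71.64 and 4.38 TPM in KSFM, with log2 ratios of −0.49 and −0.26. Of the 5 assembly factors, DNAAF1 had 0 counts in both media. DNAAF2, DNAAF3, DNAAF5 and SPAG1 were neither higher nor lower by the rule, with log2 ratios from −0.03 to 0.50. SPAG1, a co-chaperone of arm assembly, had 1164 counts in the special medium and 1052 in KSFM. DNAAF2 had 440 in the special medium and 441 in KSFM, and DNAAF5 had 761 in the special medium and 941 in KSFM.

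**Figure D3:**
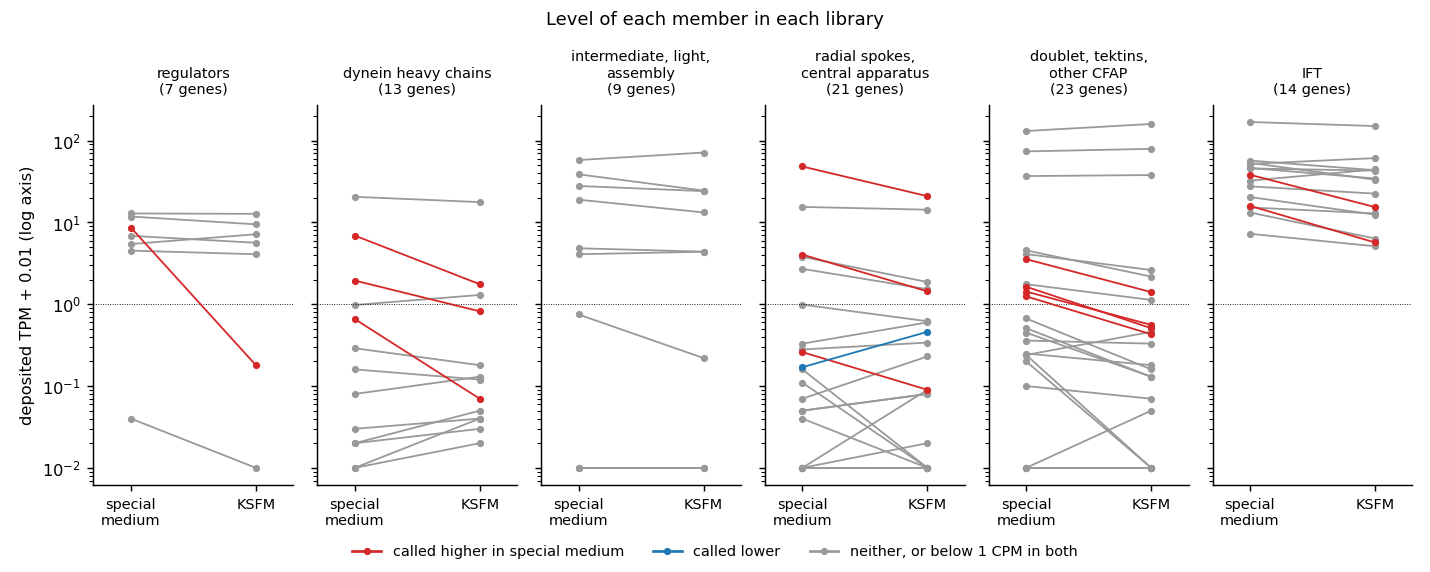
Deposited TPM of each of 87 members in the special medium (left points) and KSFM (right points), on a log axis with 0.01 added; each line is a gene, red where called higher, blue where called lower and grey otherwise, and the dotted line marks 1 TPM. Most dynein heavy chain, spoke and central apparatus genes lie under 1 TPM in both media, and all 14 IFT genes lie above it.

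Among 8 radial spoke genes, 2 reached 1 CPM. RSPH1, a spoke head gene, had 42 counts (4.04 TPM) in the special medium and 21 (1.43 TPM) in KSFM, 2.55-fold higher (1.48 to 4.53). It overlaps SLC37A1 on the other strand, which was called higher too, with 511 counts in the special medium and 290 in KSFM. RSPH3, of the spoke stalk, had 263 counts in the special medium and 350 in KSFM, and a log2 ratio of −0.06. The other spoke head genes RSPH4A and RSPH9 had 6 and 0 counts in the special medium and 10 and 0 in KSFM. RSPH10B and RSPH10B2 are near-identical copies, and the authors' estimates split their reads equally.

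The central apparatus gave calls in both directions. CFAP54 had 20 counts (1.18 CPM) in the special medium and 9 (0.417 CPM) in KSFM, 2.83-fold higher (1.23 to 7.07). SPAG16 had 476 counts (48.37 TPM) in the special medium and 297 (20.98 TPM) in KSFM, 2.04-fold higher (1.76 to 2.37). These TPM values rest on an implied transcript length of 1240 bases, 26.1% of the longest SPAG16 transcript. CFAP74 had 7 counts (0.16 TPM) in the special medium and 28 (0.45 TPM) in KSFM, 3.14-fold lower (1.34 to 8.51). At 0.414 CPM in the special medium and 1.30 CPM in KSFM, CFAP74 passed the level filter only through KSFM. HYDIN, a large central pair protein, had 93 counts (2.70 TPM) in the special medium and 69 (1.52 TPM) in KSFM, 1.72-fold (1.25 to 2.38), with reads uncertain because a near-identical copy exists in the genome. SPAG6 and SPAG17, also of the central apparatus, had 0 counts in both libraries.

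The doublet and other CFAP genes that were called were scarce, and the abundant ones lay within 2-fold. CFAP45, an inner protein of the doublet, had 49 counts in the special medium and 28 in KSFM, 2.23-fold higher (1.38 to 3.69). CFAP43, of the dynein tether, had 54 counts in the special medium and 26 in KSFM, 2.65-fold higher (1.63 to 4.41). CFAP57 had 47 counts in the special medium and 26 in KSFM, 2.31-fold higher (1.40 to 3.88). CFAP58, needed for sperm flagella, had 43 counts in the special medium and 19 in KSFM, 2.89-fold higher (1.65 to 5.24). In TPM these 4 lay between 1.24 and 3.55 in the special medium and between 0.42 and 1.40 in KSFM. CFAP44, the partner of CFAP43, had 283 counts in the special medium and 260 in KSFM, a log2 ratio of 0.47. The abundant genes were CFAP36, at 131.40 TPM in the special medium and 160.08 TPM in KSFM, CFAP20, at 73.94 TPM in the special medium and 79.51 TPM in KSFM, and CFAP97, at 36.93 TPM in the special medium and 38.01 TPM in KSFM, with log2 ratios of −0.48, −0.30 and −0.20. Of the tektins, TEKT2 had 52 counts in the special medium and 36 in KSFM, and TEKT1, TEKT3, TEKT4 and TEKT5 had at most 9 counts in the special medium and 11 in KSFM.

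Over the 49 genes of the axoneme itself (dynein chains other than DNAH14, spokes, central apparatus, doublet and tektins), 30 were below 1 CPM in both media and 35 below 1 TPM in both. Of the 19 left, 7 (36.8%) were called higher and 1 (5.26%) lower in the special medium, where 9.86% and 6.77% of all genes were. DNAH5, RSPH1 and CFAP54 of the 7 passed the level filter only through the special medium, and CFAP74, the 1 called lower, only through KSFM. The median TPM over all 49 was 0.23 in the special medium and 0.12 in KSFM.

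IFT genes were all detected, at 7.27 to 169.38 TPM in the special medium and 5.11 to 151.00 TPM in KSFM. Of 14, 2 (14.3%) were called higher and 0 lower, where 9.86% and 6.77% of all genes were. IFT122, a core subunit of the IFT-A complex that carries cargo back to the base, had 520 counts (15.97 TPM) in the special medium and 264 (5.69 TPM) in KSFM, 2.51-fold higher (2.16 to 2.92). IFT81, which binds tubulin as cargo together with IFT74, had 841 counts (38.32 TPM) in the special medium and 482 (15.43 TPM) in KSFM, 2.23-fold higher (1.99 to 2.49). IFT74 had 897 counts in the special medium and 802 in KSFM, a log2 ratio of 0.51, and IFT88 had 316 in the special medium and 220 in KSFM, a log2 ratio of 0.87. IFT140 of the IFT-A complex was at 0.56, and IFT172, IFT57, IFT20, IFT22 and IFT80 lay between 0.06 and 0.35. IFT52, the most abundant, had 2610 counts in the special medium and 3352 in KSFM, a log2 ratio of −0.01 with an interval well inside 2-fold. IFT46, IFT43 and IFT27 were at −0.12, −0.47 and −0.65. The median of the 14 was 0.20.

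The SPAG family is named for sperm antigens and holds genes with no part in the axoneme. SPAG5, a mitotic spindle protein, had 2195 counts in the special medium and 2148 in KSFM, SPAG9, a kinase scaffold, had 3636 in the special medium and 3864 in KSFM, and SPAG7 had 975 in the special medium and 1541 in KSFM. Their log2 ratios were 0.38, 0.26 and −0.31, and SPAG4 was at −0.08. SPAG11A and SPAG11B, defensin-like genes, had 0 counts. TEKT4P2, a pseudogene that the family names take in, had 193 counts in the special medium and 298 in KSFM, where TEKT4 had 4 in the special medium and 11 in KSFM.

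Promoters of 4 genes called higher are shown, picked from those that hold a match to a motif of the RFX or forkhead factors. CFAP43, with the forkhead core, and CFAP45 and DNAH2, with the X-box, hold a match too and are not shown. CFAP57, CFAP58 and IFT81, also called higher, have neither the forkhead core nor the X-box in this window. Each promoter runs from 250 bases before to 50 after the RefSeq start (GRCh38.p14), on the gene's own strand. Of the 95 members, 76 had such a promoter. Capitals mark the forkhead core TGTTTA, or its complement TAAACA, and the X-box of RFX factors, searched as GTNNCC, a gap of 0 to 3 bases and NGNAAC on both strands.
DNAH5, chr5:13944639-13944938, minus strand: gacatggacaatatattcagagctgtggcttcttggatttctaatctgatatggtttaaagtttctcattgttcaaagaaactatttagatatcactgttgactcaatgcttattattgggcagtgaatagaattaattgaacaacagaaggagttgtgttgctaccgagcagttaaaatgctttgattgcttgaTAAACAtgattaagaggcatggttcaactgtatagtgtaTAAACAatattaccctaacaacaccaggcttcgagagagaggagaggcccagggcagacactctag
DNAH11, chr7:21542789-21543088, plus strand: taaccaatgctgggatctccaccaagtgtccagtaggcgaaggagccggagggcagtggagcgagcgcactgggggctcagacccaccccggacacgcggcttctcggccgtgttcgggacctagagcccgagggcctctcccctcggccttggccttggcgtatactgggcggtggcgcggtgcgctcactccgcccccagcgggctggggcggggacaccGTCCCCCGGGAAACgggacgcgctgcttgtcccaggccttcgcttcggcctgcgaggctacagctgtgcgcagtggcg
IFT122, chr3:129439974-129440273, plus strand: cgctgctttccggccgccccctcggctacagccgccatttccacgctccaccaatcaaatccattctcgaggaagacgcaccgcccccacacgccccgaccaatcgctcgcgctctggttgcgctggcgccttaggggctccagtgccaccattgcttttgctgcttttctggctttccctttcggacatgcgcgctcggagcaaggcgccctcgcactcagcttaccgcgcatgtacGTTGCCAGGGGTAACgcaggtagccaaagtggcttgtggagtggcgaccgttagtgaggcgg
SPAG16, chr2:213284214-213284513, plus strand: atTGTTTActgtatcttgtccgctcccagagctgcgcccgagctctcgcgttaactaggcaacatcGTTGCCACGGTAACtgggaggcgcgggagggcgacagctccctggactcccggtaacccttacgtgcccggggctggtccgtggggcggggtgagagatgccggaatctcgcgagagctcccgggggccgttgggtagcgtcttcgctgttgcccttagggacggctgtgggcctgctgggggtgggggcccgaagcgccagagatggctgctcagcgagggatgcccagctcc

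Distances are to the RefSeq start, which differs from the GENCODE bounds. GENCODE starts DNAH5 at 13944543 and DNAH11 at 21543215, each downstream of its whole window. It starts IFT122 at 129440036, upstream of its X-box. In DNAH5 the forkhead core lies 55 and 16 bases before the RefSeq start, with no X-box. In IFT122 an X-box begins 12 bases before the start, in DNAH11 28 bases and in SPAG16 184 bases before it, and SPAG16 also has a forkhead core at its far end. The X-box pattern was in 25 of 76 member promoters (32.9%), against 5.01% of 27305 promoters in all. It was in 5 of the 10 promoters of members called higher, and the promoter of CCNO, which was neither, also had it. The forkhead core was in 10 of the 76 (13.2%), against 12.4% of all, and in 3 of the 10. Among 13 IFT promoters the X-box was in 2. FOXJ1 itself was not matched. A match of letters is a description and not a bound site.

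Genes of the same families that the tables list under older symbols were found through their Ensembl identifiers. Of these 22, 11 reached 1 CPM with a median log2 ratio of 0.32. Of the 11, 1 (9.09%) was called higher and 0 lower, where 9.86% and 6.77% of all genes were. LRRC6, now DNAAF11 and needed for arm assembly, had 37 counts in the special medium and 22 in KSFM, 2.14-fold higher (1.23 to 3.82). WDR78 (DNAI4) had 51 counts in the special medium and 52 in KSFM, and WDR63 (DNAI3) had 15 in the special medium and 30 in KSFM. C11orf1 (CFAP68) just missed the rule, with 24.9 CPM in the special medium and 49.9 CPM in KSFM, just under 2-fold lower. MAATS1 (CFAP91) had 0 in both. Some of the 22 are also counted in lists below. LRRC6, CASC1, MAATS1, PIH1D3, WDR63, WDR66, WDR78 and WDR92 are in that of other axoneme genes. HSPB11 is in that of other IFT genes, and C1orf194 and FAM183A are in that of multiciliated cell markers.

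Other axoneme and assembly genes outside the symbol rule were listed by hand. Of 63 found, 36 reached 1 CPM with a median log2 ratio of 0.44. Of the 36, 6 (16.7%) were called higher and 1 (2.78%) lower, where 9.86% and 6.77% of all genes were. LRRC6, given above under its older symbol, is counted again among the 6. ZMYND10 and DRC3 of the 6 were below 1 CPM in KSFM and so passed the filter only through the special medium. ZMYND10, an assembly factor, had 31 counts in the special medium and 12 in KSFM, 3.29-fold higher (1.65 to 7.04). IQCD, of the nexin-dynein regulatory complex that links doublets, was 2.95-fold higher (2.06 to 4.28), and PIH1D2 had 106 counts in the special medium and 53 in KSFM, 2.55-fold higher (1.82 to 3.62). EFCAB2, of the same regulatory complex, had 70 counts in the special medium and 193 in KSFM, 2.16-fold lower (1.64 to 2.88).

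Of 34 markers of multiciliated cells found, 20 were below 1 CPM in both media. Of the 14 measured, 4 (28.6%) were called higher, 1 (7.14%) lower and 9 neither, where 9.86% of all genes were called higher and 6.77% lower. FANK1, ODF3B and AK7 of the 4 were below 1 CPM in KSFM and so passed the filter only through the special medium. Such genes had to differ, so these shares too are descriptions. The median log2 ratio of the 14 was 0.66. CAPS, a calcium-binding protein abundant in ciliated airway cells, had 272 counts (16.32 TPM) in the special medium and 55 (2.28 TPM) in KSFM, 6.31-fold higher (4.71 to 8.59). FANK1 had 70 counts in the special medium and 15 in KSFM, 5.95-fold higher (3.37 to 11.2). ODF3B had 21 in the special medium and 10 in KSFM, 2.68-fold higher (1.21 to 6.37). PROM1, a protein of membrane protrusions in many epithelia, had 19 counts in the special medium and 63 in KSFM, 2.60-fold lower (1.54 to 4.60). The markers C9orf24, C20orf85, C11orf88, C1orf194 and FAM92B had 0 counts in both media, SNTN had 0 in the special medium and 2 in KSFM, and TPPP3 had 6 in the special medium and 9 in KSFM. Leaving aside the widely used tubulin gene TUBB4B, the other 33 markers summed to 86.4 TPM in the special medium and 45.5 TPM in KSFM. Among 20 male germ cell markers, 15 had 0 counts in both media, and TSSK6, a testis kinase, was called lower with 17 counts in the special medium and 60 in KSFM. Those germ cell markers summed to 2.41 TPM in the special medium and 4.17 TPM in KSFM. The part of either cell type in the values above was not tested.

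The medians of lists of machinery shared with primary cilia lay near equality, though single genes lay away from it in both directions. Over all genes, 9.86% were called higher and 6.77% lower. Of 21 other IFT and IFT motor genes, 2 (9.52%) were called higher and 1 (4.76%) lower (median 0.13). RABL2A, which has a near-identical copy in RABL2B, was 2.13-fold and WDR60 of dynein-2 2.02-fold (1.79 to 2.30) higher in the special medium, and TCTEX1D2, also of dynein-2, was 2.15-fold lower (1.69 to 2.74). None of the 18 genes of the BBSome, a membrane protein adaptor of cilia, and its partners was called, with a median of −0.06. The list's highest genes by mean CPM were BBS2 and UNC119B. BBS2 was at 85.95 TPM in the special medium and 54.48 TPM in KSFM, and UNC119B at 26.26 TPM in the special medium and 36.72 TPM in KSFM. Of 34 transition zone and basal body genes, 1 (2.94%) was called higher, TMEM17, on 116 counts in the special medium and 64 in KSFM (median 0.14). In that list TTBK2 had a log2 ratio of −0.97 and OFD1 one of 0.97, neither of them called. Cytoplasmic dynein and dynactin had 0 calls among 17 measured genes (median 0.11). Its highest genes by mean CPM were DYNC1H1, at 38.16 TPM in the special medium and 28.25 TPM in KSFM, and PAFAH1B1, at 77.63 TPM in the special medium and 69.76 TPM in KSFM.

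Of 14 measured genes of the wider multiciliogenesis program, 1 (7.14%) was called higher, where 9.86% of all genes were. It was E2F5, a factor of the multicilin complex, with 583 counts in the special medium and 354 in KSFM, 2.10-fold (1.84 to 2.40). Of the 6 measured genes in a list of the rest of the RFX family and its partners, 1 (16.7%) was called higher. It was RFXAP, which serves class II antigen presentation, at 2.13-fold.

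**Figure D4:**
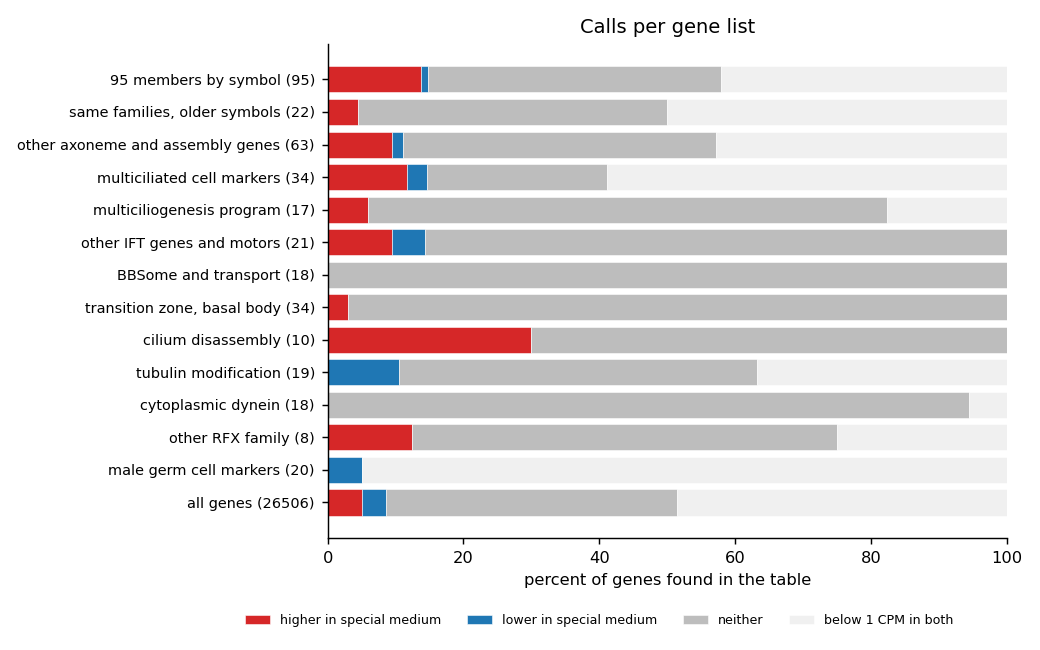
Share of the genes of each list called higher (red), called lower (blue), neither (grey) or below 1 CPM in both media (pale), with the number found in parentheses; all genes form the last bar. Bars are shares of the genes found, whereas the 9.86% of the text is a share of the 13632 genes at 1 CPM or more. Of the 95 members 13 were called higher, and of all 26506 genes 1344. None was called higher in the BBSome, cytoplasmic dynein, tubulin modification and male germ cell lists. Some genes are in more than 1 list.

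The corneal epithelial label was checked against epithelial markers. KRT18, EPCAM and CDH1 were at 2502.88, 449.48 and 176.16 TPM in the special medium and 1128.04, 300.83 and 197.48 TPM in KSFM, with KRT5 at 51.12 TPM in the special medium and 68.65 TPM in KSFM. PAX6, the eye-field factor, was at 3.66 TPM in the special medium and 1.89 TPM in KSFM, while KRT12 had 0 counts in both libraries and KRT3 had 1 in the special medium and 0 in KSFM. KRT14 and TP63, of basal cells, had 10 and 13 counts in the special medium and 4 and 5 in KSFM.

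The ratios of short transcripts lay lower over the whole table. Over all genes at 1 CPM or more, the median log2 ratio was −0.51 for those with an implied transcript length under 1000 bases and −0.13 from 1000 to 2000 bases. It was 0.07 from 2000 to 4000 bases and 0.05 from 4000 bases, with no rise between these classes, which hold 5419 and 4434 of the genes. Of the 21 members in the longest class 7 were called higher, where 8.86% of all genes of that class were. Across the 55 members, Pearson's r of the log2 ratio with log10 length was 0.28 and Spearman's rho 0.38, and over all 13632 genes 0.11 and 0.15. After removal of a trend on length and GC content, fitted for 53 of the 55, all 14 calls remained and TEKT2 was called higher as well.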

How the data were processed

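Estimated counts per gene were deposited by the authors, as were TPM values. The submitters' processing notes name RSEM, HISAT2 2.1.0, fastp 0.20.0, FastQC 0.11.9 and GRCh38, with no order of steps. No RSEM version, annotation or strand setting was found: not given in the sources used here. Per the labels, a stranded poly(A) kit was used and RNA of 3 cultures was pooled per medium.

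Estimated counts were rounded to whole numbers and library sizes scaled with edgeR 4.0.16 TMM factors (R 4.3.3). Ratios are special medium over KSFM with Clopper-Pearson 95% intervals conditional on the summed count. A 0 against more than 3 counts was set to 3, and no ratio was formed where a library had 0 and the other at most 3. Reads carry no molecular identifiers, so intervals and limits cover counting error only. The call rule was tested on simulated counts with 200 changed genes. Implied transcript length is the deposited count over TPM, scaled on 376 genes with a single GENCODE 29 transcript.

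Scaling by upper quartile, by DESeq2 1.42.0 or by total count was tried as an alternative. So were an interval lying wholly past 2-fold, a rule of 4-fold, no level filter or one at 10 CPM, and TPM after adding 1 or 0.1. Centred TPM and removal of a length and GC trend were added after the data were seen. The members, roles and gene lists were chosen with earlier results of these data known.

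Genes named are members that passed the rule, FOXJ1, RFX2, RFX3, MCIDAS, GMNC, CCNO, TP73 and HYDIN whatever their values, members at 10 CPM or more, and up to 4 called genes per other list, or its 2 highest by mean CPM if none was called. Members at or near 0, list genes at 0 and genes under older symbols were named after their values were seen. Tables and figures were made with pandas 2.3.3, matplotlib 3.10.9, scipy 1.17.1 and numpy 2.4.6 under Python 3.11.15.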

Additional observations from a re-analysis of the deposited data

How the results depend on the processing

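Total count, DESeq2 and upper quartile scaling left 13 members called higher and 1 lower, the same 14 genes. With 1 added to TPM the counts were 6 higher (10.9%, against 9.29% of all genes) and 0 lower, and once centred 5 (9.09%, against 6.81%) and 0. With 0.1 added they were 14 (25.5%, against 12.3%) and 1: 13 of the 14 calls were kept, CFAP54 (0.96) lost its call, and IFT88 and TEKT2 gained one. The pseudocount of 1 exceeds the TPM of DNAH5 in both media, and its log2 ratio was then 0.64. A filter of 10 CPM left 6 of 37 higher (16.2%, against 7.57%) and 0 lower. No filter gave 14 of 75 higher (18.7%, against 9.63%) and 1 lower, DNAI1 being added. The 4-fold rule gave 2 (3.64%, against 2.99%) and 0, and the interval beyond 2-fold 4 (7.27%, against 6.14%) and 0. The FOXJ1 log2 ratio was 3.04 with 1 added to TPM and 2.89 once centred, and between 5.02 and 5.67 under the other alternatives. The median log2 ratio of the members was 0.15 on centred TPM, 0.16 with a filter of 10 CPM and 0.22 with none. Relative to counts, TPM moved the all-gene median log2 ratio to 0.15 with 1 added and 0.16 with 0.1 added. Of 320 values of named genes other than FOXJ1 under alternatives, 54 left their counting interval and 0 called genes reversed. No paired analysis was possible because each medium has 1 library, and leaving out a replicate was not possible for the same reason. CFAP54 and CFAP74 rest on the fewest counts of the called members.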

Other observations

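The length that the deposited counts and TPM imply was close to the longest GENCODE 29 transcript for most members with at least 20 counts in each library (median 97.0% over 48 genes, against 95.1% over 11215 genes). It was far shorter for DNAH14, at 1139 bases against 13763 for its longest transcript (8.28%), for IFT27 at 15.7% and for SPAG16 at 26.1%. For DNAH11 and DNAH2 it was 14297 and 15381 bases. The TPM of DNAH14 was computed by the authors over that short length.

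A list named for cilium disassembly, with genes that also serve mitosis, was kept with the ciliary lists. It also held TTBK2, CCP110 and CEP97, which are in other lists here, so its name does not describe every gene. The median log2 ratio of the list was 0.21. Of 10, 3 (30%) were called higher and 0 lower, where 9.86% and 6.77% of all genes were. NEDD9, a scaffold that activates Aurora A, had 560 counts in the special medium and 182 in KSFM, 3.92-fold higher (3.31 to 4.66). AURKA and PLK1 were 2.67-fold and 2.56-fold higher. Of 12 measured tubulin-modifying genes (median 0.02), 0 were called higher and 2 (16.7%) lower, TTLL11 and TPGS1. TTLL11, a polyglutamylase, had 26 counts in the special medium and 84 in KSFM. TPGS1, a polyglutamylase subunit, had 18 in the special medium and 52 in KSFM.

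Of the genes called higher, 5 overlap a gene of the table on the other strand. RSPH1 overlaps SLC37A1, which was itself called higher, with 30.2 CPM in the special medium and 13.4 CPM in KSFM, 2.25-fold (1.94 to 2.60), the direction and about the size of RSPH1. DNAH11 overlaps CDCA7L, which had 135 CPM in the special medium and 161 CPM in KSFM. CFAP57 overlaps EBNA1BP2, which had 177 CPM in the special medium and 277 CPM in KSFM. IFT122 overlaps MBD4, which had 48.6 CPM in the special medium and 55.2 CPM in KSFM. These 3 ratios lay below equality and within 2-fold. The fifth pair, FOXJ1 and RNF157-AS1, is given with FOXJ1. The part of reads from the other strand in any of these values was not tested.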
